A study of Caenorhabditis elegans with 2 samples.

Results

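The histone genes of *Caenorhabditis elegans* were taken as the protein-coding genes of the WBcel235 annotation whose name begins with his-, which gave 72 of 19985 genes. The annotation uses only 50 distinct names for them, so the 72 symbols used here are those of RefSeq, matched by WormBase identifier. By RefSeq product name they were 17 H2A, 16 H2B, 15 H3, 16 H4, 5 H3.3 and 1 linker H1 gene, and 2 genes (*his-73* and *his-39*) named only for a histone fold domain. The genes fell into 20 loci when starts no more than 5000 bp apart were joined. In 15 loci 67 genes were clustered, and 5 genes (*his-71*, *his-72*, *his-73*, *his-74* and *his-24*) stood alone.

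Nucleosomes are built from pairs of H2A, H2B, H3 and H4, and the linker histone H1 binds the DNA between them. In animals the genes of the core histones lie in clusters, often as divergent pairs, and their RNA is made mainly while DNA is replicated, whereas the H3.3 variant is made and deposited outside S phase as well. LIN-35 is the worm's retinoblastoma-like pocket protein, which acts with E2F-DP factors and LIN-54 in the DREAM complex, a repressor of cell cycle genes in other animals too. E2F factors bind GC-rich words such as TTCCCGC, and LIN-54 binds the cell cycle homology region (CHR), with words such as TTTGAA.

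LIN-35 binding was mapped by ChIP-seq, in which DNA bound to a precipitated protein is sequenced, in whole young adults of both sexes from strain YL402. The strain carries the *unc-119* allele ed3 and the integrated transgene vrIs56, in which the *pie-1* promoter, used to drive germline expression, makes LIN-35 with GFP and FLAG tags and the *lin-35* 3′ UTR, beside a wild-type *unc-119* copy. The antibody label names lin-35, while the description names an eGFP fusion, so which epitope was precipitated is not settled by the labels. There were 2 libraries, biological replicates 2 and 3, in 1 group, with no other genotype, stage or treatment; regions at histone genes were compared with those at all other genes, and no test between conditions was possible.

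A region was assigned to a gene when its summit lay within 1000 bp of the gene start. For 64 of the 72 histone genes, against 22.7% of all genes, the annotation holds no 5′ UTR, so their start is the first coding base. The authors' list of thresholded peaks, which passed their irreproducible discovery rate (IDR) step, held 396 regions with a deposited enrichment signal of 29.96 to 706.6. The unthresholded candidate lists, described by the authors as peaks and background, held 30000 regions in the pooled data (signal 6.36 to 706.6), 20291 in replicate 2 (2.00 to 190.4) and 30000 in replicate 3 (4.64 to 583.3). The scale of the signal is not given, so it ranks regions within a list only. Read numbers were not used here, and the depth behind each region is unknown.

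No histone gene had a thresholded peak. Over all protein-coding genes 2.53% had one, a share that would be 1.82 of 72 genes, so a count of 0 differs little in absolute number from the background. A pooled candidate region was found at 23 of the 72 histone genes (31.9%), against 53.0% of all genes. In replicate 2 the count was 15 genes (20.8%) against 40.1% of all genes, and in replicate 3 it was 20 (27.8%) against 53.0%. Both replicate lists had a region at 10 histone genes (13.9%), against 24.1% of all genes. In all 3 candidate lists the histone share was below that of all genes. No region in any of these lists was found at 45 histone genes, 44 of them clustered, as were 67 of all 72. The same count was not made over all genes, so it has no background beside it. The regions present were of ordinary rank: the highest signal at a histone gene was 21.8 in the pooled list, and the median over the 23 genes of each gene's best pooled signal was 12.2, against 10.1 over all genes with a region. Among the 1000 pooled regions with the highest signal were regions at 3 histone genes (4.17%, against 5.09% of all genes), and among the highest 2000 at 6 (8.33%, against 7.98%).

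The 27 distinct pooled regions lay at 12 of the 20 loci, and 22 of them were nearer to a histone gene start than to any other. Of these 27 regions, 19 were intergenic, 4 lay in coding exons, 2 in introns and 2 in 5′ UTRs, and 14 had their summit within 500 bp of the histone gene start. Several genes often share a region, so genes of a locus are not independent. The plot of signal against position shows where these summits lay.

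**Figure D1:**
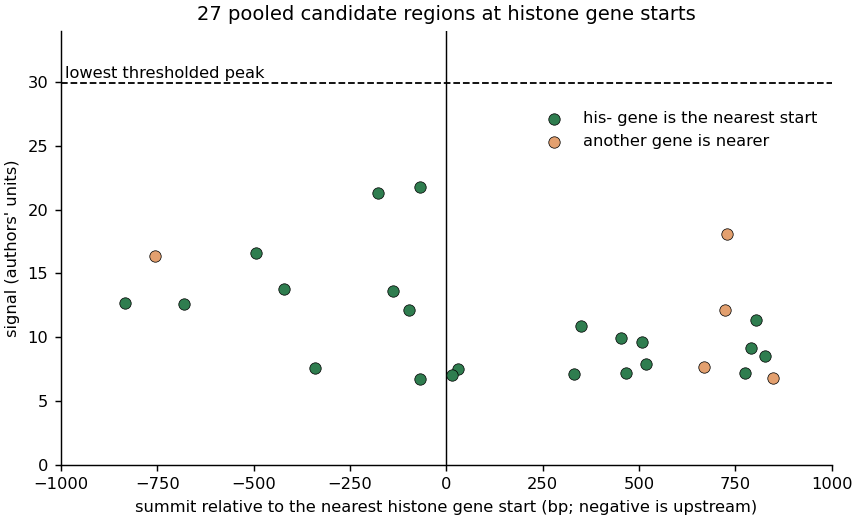
The 27 pooled candidate regions at histone genes, with the position of the summit relative to the nearest histone gene start (x axis, bp, upstream negative) and the deposited signal (y axis, authors' units). Points are coloured by whether a histone gene was the nearest gene. The highest point is the region 68 bp upstream of *his-72* (signal 21.8), 14 of the 27 summits lie within 500 bp, and all lie below the dashed line at the lowest thresholded signal, 29.96.

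H3.3 is the replication-independent form of H3, and the 5 genes counted here include *his-69*, *his-70* and *his-74*, which are named only H3.3-like. Of the 5, 4 had a pooled region, 2 a region in replicate 2 and 4 a region in replicate 3, beside 53.0%, 40.1% and 53.0% of all genes, so the count in replicate 2 was at the background. The strongest region at any histone gene was at *his-72*, an isolated H3.3 gene on chromosome III: chrIII:12368970-12369265 (ce11), intergenic, with its summit 68 bp upstream of the start, a signal of 21.8 and rank 784 of the pooled list (the top 2.61%). Replicate 3 had a region at nearly the same place, with its summit 72 bp upstream, a signal of 11.1 and rank 2515. In replicate 2 the only region at *his-72* had its summit 165 bp downstream, in an intron, with a signal of 2.88 and rank 14845. The position upstream of the start was thus found in the pooled list and replicate 3, and replicate 2 placed a low-ranked summit elsewhere in the gene.

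*his-74*, an isolated gene named H3.3-like, had a pooled region at chrV:12660677-12660972, 495 bp upstream, with a signal of 16.6 and rank 1937. Replicate 3 had it with a signal of 8.50 and rank 7164, while the replicate 2 summit, 875 bp upstream with rank 9660, was nearer to W05B10.3. *his-71*, the isolated H3.3 gene on X, had its best pooled region inside a coding exon, 349 bp downstream of the start, with a signal of 10.8 and rank 9139. Replicate 3 had this region at rank 15091, and replicate 2 had none at *his-71*. *his-69* and *his-70* lie together on chromosome III and count as clustered by distance. The region at *his-69* (chrIII:4057873-4058168, signal 12.2, rank 6401) was nearer to another gene, *rcq-5*, a RecQ helicase gene whose start lay 45 bp away, against 722 bp for *his-69*. It had the highest rank of any histone region in replicate 3 (636, signal 15.1) and was absent from replicate 2. *his-70* had no region in any list. In replicate 2 no H3.3 gene had a region of higher rank than the 9660 of *his-74*.

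Both strands were searched for the E2F word TTCCCGC and its variants with letters TTCGCGC or else with letters TTGCCGC or else with letters TTGGCGC, and for the CHR words TTTGAA or else the word TTCGAA. Examples are shown from regions at *his-72*, which had the highest pooled rank, at *his-74* and at *his-37*, and from the E2F word repeated in 3 core histone pairs; other regions, some of higher rank than those at *his-74* and *his-37*, held CHR words that are not printed. They are given with the matched word in capitals and the genome sequence around it in lower case, written 5′ to 3′ from the WBcel235 (ce11) reference. At *his-72*, E2F and CHR words lay within 100 bp of the pooled summit, at chrIII:12369096-12369120 (minus strand) and chrIII:12369075-12369098 (plus strand). At *his-37*, an H4 gene, an E2F word lay at chrV:9546921-9546945 (plus strand), also within 100 bp of a pooled summit. The *his-74* region held CHR words at 2 places within 100 bp of its summit, and the one printed was at chrV:12660866-12660889 (plus strand). The *his-47*/*his-48* site at chrIV:11324646-11324670 (minus strand) occurs with the same letters at chrIV:11340181-11340205 between *his-57* and *his-58* and at chrIV:11400861-11400885 between *his-65* and *his-66*, and nowhere else in the genome.
his-72, E2F: tcttactcgTTCCCGCcccgccccg
his-72, CHR: caatatataTTCGAAtggtgtcgg
his-37, E2F: gcacaacctTTCCCGCgtcatcgaa
his-74, CHR: atcttttaaTTCGAAgtttggggg
his-47 and his-48, E2F: gggcggagcTTCCCGCggggacaca
The first 3 and the *his-74* sites are each found once in the genome, and the last is found 3 times.

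In the window from 250 bp before to 50 bp after the start, 8 of 72 histone genes (11.1%) held an E2F word, against 9.22% of all genes. These 8 were *his-72*, *his-37* and the 3 H2A-H2B pairs just given. A CHR word was present at 13 (18.1%), against 69.0% of all genes. The windows are not independent: the 72 genes have 51 distinct window sequences, of which 5 hold an E2F word and 10 a CHR word. Their base composition also differs from the rest, with a median GC content of 48.2% against 34.2%, and its part in the low share of the AT-rich CHR words was not tested. Around the 27 pooled summits, 4 (14.8%) had an E2F word within 100 bp and 13 (48.1%) a CHR word, against 9.11% and 52.8% of the 11818 pooled regions within 1000 bp of any gene start. A word match is not evidence of a bound site.

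The only H1 gene among them is *his-24*, isolated on X. Its pooled region at chrX:14489524-14489819 was intergenic, 422 bp upstream, with a signal of 13.7 and rank 4152, but neither replicate list had a region at *his-24*. *his-73*, on chromosome II, was the isolated gene without a region in any list. Of the 5 isolated genes, 4 (80%) had a pooled region, against 19 of 67 clustered genes (28.4%) and 53.0% of all genes. In replicate 2 the counts were 2 of 5 isolated (40%) and 13 of 67 clustered genes (19.4%), beside 40.1% of all genes. In replicate 3 they were 3 of 5 (60%) and 17 of 67 (25.4%), beside 53.0%. The isolated counts in the replicates were thus near the background.

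Among the core histones, a pooled region was found at 3 of 17 H2A, 2 of 16 H2B, 6 of 15 H3 and 6 of 16 H4 genes, against 53.0% of all genes. The strongest was between *his-67* (H4) and *his-68* (H2A), at chrI:9988807-9989102, with its summit 177 bp upstream of *his-68*, a signal of 21.3 and rank 837. It was in both replicates, with a signal of 11.6 and rank 764 in replicate 2, the highest of any histone region there, and a signal of 7.71 and rank 9765 in replicate 3. The argonaute gene *alg-5* also started within 1000 bp of this summit.

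At the locus of *his-35* (H2A), *his-41* (H2B) and *his-37* (H4) on chromosome V, the 3 genes had 5 pooled regions within reach. The first, at chrV:9544411-9544706 with a signal of 18.1 and rank 1394, lay 729 bp downstream of the *his-35* start and was nearer to *mdf-1*, a spindle checkpoint gene, at 333 bp. Replicate 3 had it at rank 5145, and replicate 2 did not. The region at chrV:9546201-9546496, with a signal of 16.4 and rank 2074, lay in the 5′ UTR of C50F4.6, and replicate 3 had it at rank 2308. The next, nearer to a histone start, was at chrV:9546859-9547154, 98 bp upstream of *his-37*, with a signal of 12.2 and rank 6421. In replicate 3 it had a signal of 12.4 and rank 1543. The highest pooled signals at this locus thus belonged to regions closer to neighbouring genes than to the histone genes.

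The quartet of *his-61* (H2A), *his-62* (H2B), *his-60* (H4) and *his-59* (H3) on chromosome IV had 5 pooled summits in 4033 bp, counted from 1000 bp before the first start to 1000 bp after the last. The strongest, at chrIV:7486258-7486553, was 139 bp upstream of *his-62*, between the divergent H2A and H2B starts, with a signal of 13.6 and rank 4306. Replicate 2 had this region with a signal of 5.22 and rank 6125. In replicate 3 the strongest region was another, 610 bp from the *his-62* start, with a signal of 12.4 and rank 1556. At *his-1* (H4) and *his-2* (H3) on chromosome V, a region at chrV:16042880-16043175 had a signal of 9.64 and rank 12784 in the pooled list and a signal of 11.0 and rank 897 in replicate 2. Replicate 3 had none there, and the other genes of that quartet, *his-3* and *his-4*, had none in any list. In the 13-gene locus on chromosome II, *his-42* (H3) had a pooled region at chrII:13829382-13829677, 833 bp upstream, with a signal of 12.7 and rank 5546. Replicate 2 had it with a signal of 8.19 and rank 2039. In replicate 3 the only region at *his-42* lay 21 bp downstream of the start, at rank 23623. Of the 36-base words in the upstream region, 52.9% (pooled) and 36.4% (replicate 2) occur once in the genome.

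Other regions at core histone genes had pooled ranks of 7947 or lower. *his-9* and *his-25* shared a region of rank 7947, *his-5* and *his-39* one of rank 21952, and *his-31* and *his-32* one of rank 27191. At *his-47* only replicate 2, at rank 10889, and at *his-57* and the pair *his-17* and *his-18* only replicate 3, at ranks 19846 and 18422, had a region. The *his-47* summit lay in the 3′ UTR of *edg-1*, 935 bp from the *his-47* start. The region of *his-17* and *his-18* was nearer to *frpr-13*, at 217 bp, against 611 bp for *his-18*. Of the 20 loci, 8 had no pooled region, and the 6-gene locus of *his-49* to *his-54* on chromosome V was among the 5 without a region in any list.

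**Figure D2:**
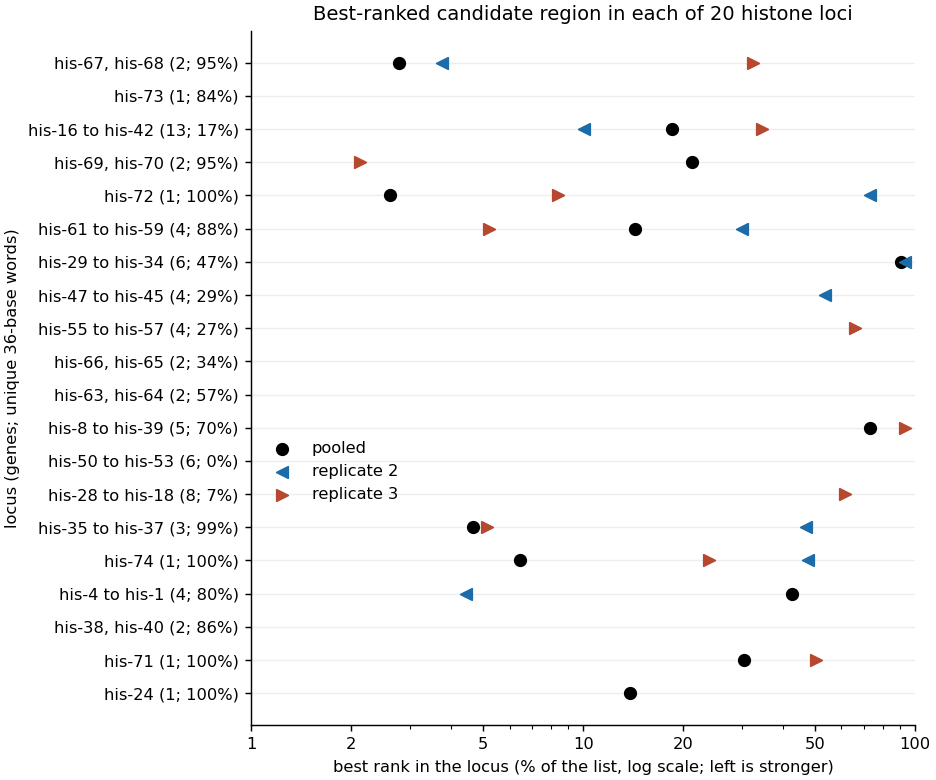
Best rank of a candidate region in each of the 20 histone loci (rows, named by their genes with the percentage of unique 36-base words), as a percentage of the length of each list (x axis, log scale, left is stronger). Symbols mark the pooled, replicate 2 and replicate 3 lists, and a missing symbol means no region. The loci of *his-72* and of *his-67* and *his-68* reach furthest left in the pooled list (2.61% and 2.79%), and the symbols of a locus are often far apart.

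The libraries often disagreed on where regions lay. Of the 13 replicate 2 regions at histone genes, 4 (30.8%) overlapped a replicate 3 region by at least 1 base, against 28.8% of the 8418 replicate 2 regions near any gene start. The 4 were at *his-67* and *his-68* (rank 764 in replicate 2) and, at lower ranks of 12151, 14845 and 14952, at *his-61* and *his-62*, *his-72* and *his-37*. The overlap at histone genes was thus close to that at all genes.

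Many histone genes are near-identical copies, so the share of 36-base words found once in the genome was measured in the 1000 bp on each side of every gene start. The median was 29.3% for histone genes and 100% for all protein-coding genes. Under 50% were 41 of 72 histone genes (56.9%), against 2.48% of all genes, and 16 histone genes had no unique word. The coding exons of 37 of the 72 held none. Clustered genes had a median of 26.8% and isolated genes 99.9%. Within the clustered genes, a pooled region was found at 3 of 41 with under 50% unique words and at 15 of 20 (75%) with at least 75%, beside 4 of the 5 isolated genes (80%), all of which had at least 84.1%.

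At other genes, too, the pooled share was lower in classes with fewer unique words, though the shares differed from those of histone genes. Among genes with under 50% unique words, a pooled region was found at 3 of 41 histone genes (7.32%) and 24 of 455 other genes (5.27%), and no gene of either kind had a thresholded peak. Between 50% and 75% it was found at 1 of 6 histone genes and 27.6% of other genes. At 75% or more, 19 of 25 histone genes (76%) had a pooled region, against 55.2% of 18715 other genes. With replicate 2 alone this share was 13 of 25 (52%, against 41.7%), and with replicate 3 alone 14 of 25 (56%, against 55.1%). The 25 genes share regions, so these are not 25 separate observations. In the pooled list, the lower share of all 72 histone genes was not seen at 75% or more, a class chosen after seeing the data. Whether uniqueness accounts for the lower share was not tested. At 50% or more, the pooled share was 64.5% of 31 histone genes, against 54.2% of other genes. With replicate 2 alone it was 41.9% against 40.99%. With replicate 3 alone it was 45.2% against 54.2%, so the lower share remained there. At repeated sequence few genes of any kind had a region. Whether reads of repeated sequence were kept is unstated in the labels and files used here, so an absent region at repeated sequence does not show absent binding. Of the 30000 pooled regions, 0.237% had under 50% unique words. Of all single words in the genome, 7.93% were repeated. These are shares of unlike units, regions and single words, so no depletion of regions can be read from them. The share of genome windows of region length with under 50% unique words was not counted. Of 31 histone genes with at least 50% unique words, 0 had a thresholded peak, against 2.60% of other genes.

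**Figure D3:**
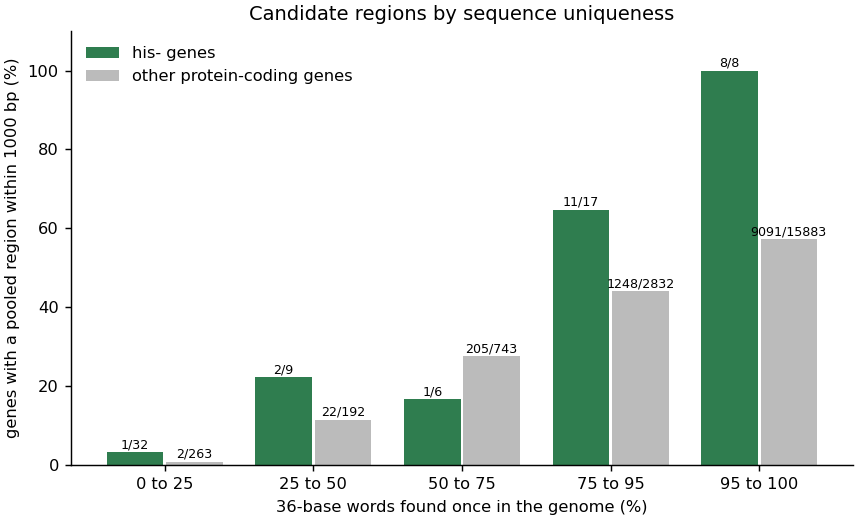
Share of genes with a pooled candidate region within 1000 bp of the start (y axis, %), by the percentage of 36-base words around the start that occur once in the genome (x axis), for histone genes and all other protein-coding genes. Numbers above the bars are genes with a region over genes in the class. The share was 3.13% of 32 histone genes at 0 to 25% unique words and all of 8 at 95 to 100%, and 0.760% and 57.2% of other genes.

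**Figure D4:**
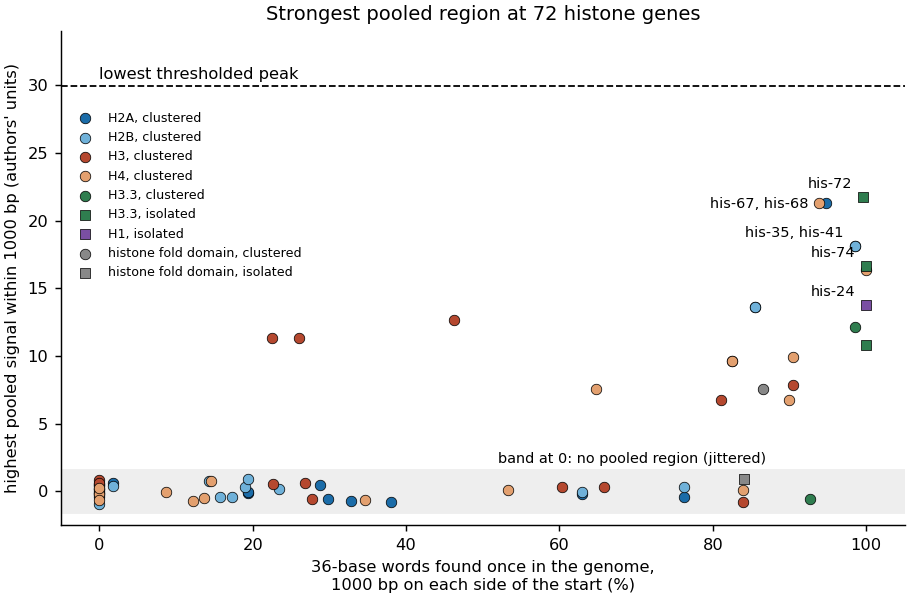
Highest pooled signal within 1000 bp of the start of each of the 72 histone genes (y axis, authors' units, genes without a region in the jittered band at 0) against the percentage of unique 36-base words around the start (x axis). Colours mark the histone class and symbols clustered or isolated genes. The highest signals, up to 21.8, belong to genes at the right, most genes under 50% have no region, and all lie below the dashed line at the lowest thresholded signal, 29.96.

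Most core histone genes are paired head to head, so a region between the starts can serve both. There were 31 such pairs: 16 H2A-H2B pairs with 227 to 327 bp between starts, 14 H3-H4 pairs with 234 to 321 bp, and *his-67* with *his-68*. Between the starts, 17 of the 31 stretches held no unique word. A pooled summit lay between the starts of 3 pairs (*his-67* and *his-68*, *his-61* and *his-62*, *his-31* and *his-32*). These were 3 of the 11 pairs whose stretch was at least 50% unique (27.3%), against 34.4% of the 442 pairs of any genes with starts 200 to 400 bp apart and the same uniqueness. Of the 20 histone pairs below 50%, 0 had a summit there, and likewise 0 of the 12 other pairs.

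A single thresholded peak lay just outside the distance used. Its summit, at chrIV:11337053-11337348, was 1062 bp downstream of the *his-55* (H3) start, with a signal of 67.6, rank 91 in the pooled list, rank 47 in replicate 2 and rank 423 in replicate 3. It was 17 bp from the start of F54E12.2, the nearest gene. At the locus with the next nearest thresholded peak the distance was 8323 bp, from *his-61*, and the median distance from a histone gene to a thresholded peak was 52602 bp. This median was not taken over all genes, so it has no background beside it.

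Genes of histone variants, linker histones and chaperones outside the his- names were set beside the histone genes, as 23 genes that all matched the annotation. Thresholded peaks lay at 6 of them (2.53% of all genes had one), pooled regions at 16 (53.0% of all genes), and regions in replicates 2 and 3 at 15 and 17 (40.1% and 53.0% of all genes). At least 78.8% of the words around each of their starts were unique. The part of this difference from the his- genes in these counts was not tested. Of the 11 variant and linker genes, 3 had a thresholded peak and 5 a pooled region, beside 2.53% and 53.0% of all genes. The linker genes *hil-2* and *hil-6* had no region in any list. At *hcp-3*, the centromeric H3 variant CENP-A, the signal was 100.4 (rank 38) with the summit 671 bp upstream, and the ranks were 30 in replicate 2 and 92 in replicate 3. At *htz-1*, which encodes H2A.Z, the signal was 49.5 (rank 175, with ranks 221 and 142 in the replicates), from a peak shared with the cohesin regulator gene *wapl-1*. At the linker histone gene *hil-4* it was 33.9 (rank 327, with ranks 343 and 2499). The *hcp-3* and *htz-1* peaks ranked no lower than 221 in either library, while the best ranks at a his- gene were 764 in replicate 2 and 636 in replicate 3. The *hcp-3* paralog *cpar-1*, with the same share of unique words (97.8%), had no pooled region and ranks 7312 and 27609 in the replicates.

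Of the 11 chaperone and assembly genes, 3 had a thresholded peak and 10 a pooled region, beside 2.53% and 53.0% of all genes. The histone-binding gene *lin-53*, itself a DREAM subunit, had a signal of 83.6 (rank 61, with ranks 41 and 252 in replicates 2 and 3), from a peak shared with *nra-2*. *unc-85*, which encodes the H3-H4 chaperone ASF1, had a signal of 49.7 (rank 174, with ranks 257 and 91). *chaf-2*, a subunit of chromatin assembly factor 1, had a signal of 31.2 (rank 365, with ranks 397 and 3711), from a peak shared with Y71G12B.30. Below the thresholded list, whose lowest signal was 29.96, were the nucleosome assembly gene *nap-1* (26.97, rank 470, but rank 28925 in replicate 3), the ASF1 paralog *asfl-1* (26.9, rank 477) and the FACT subunit genes *hmg-3* (rank 563) and *hmg-4* (24.4, rank 597). The other FACT gene, *spt-16*, ranked 16848 and had no region in either replicate. The H3.3 chaperone gene *hira-1* ranked 1596 and *chaf-1* ranked 26212, and *rba-1*, the paralog of *lin-53*, had no region in any list. *cdl-1*, whose product binds the stem-loop of histone mRNA, had a pooled region 100 bp upstream with a signal of 17.8 and rank 1512, and ranks of 5998 and 3542 in replicates 2 and 3. The plot by gene group sets these signals beside those of the his- genes, the highest of which was 21.8.

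**Figure D5:**
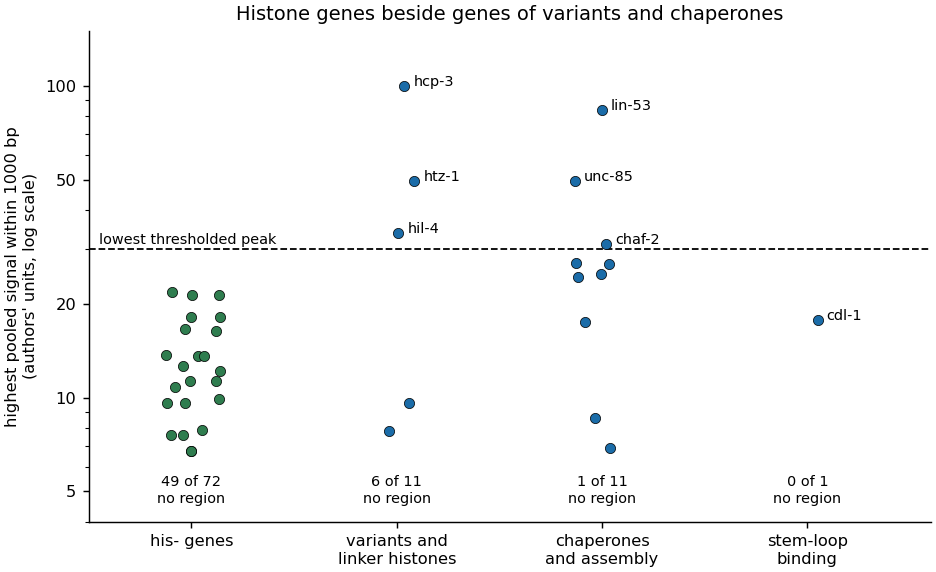
Highest pooled signal within 1000 bp of the start (y axis, authors' units, log scale) for his- genes and for the genes of histone variants and linkers, chaperones and histone mRNA binding (x axis), for genes with a pooled region. The his- genes reach 21.8, and *hcp-3*, at 100.4, is the highest of the related genes. The dashed line is the lowest thresholded signal, 29.96.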

How the data were processed

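ChIP-seq of tagged LIN-35 was deposited as region lists for 2 libraries (replicates 2 and 3), their pool and a thresholded set. Per the text deposited with the samples, candidate regions were called from each replicate's and the pooled alignments with a control alignment. The aligner, the peak caller, the IDR threshold, the read length and the treatment of repeated reads are not given in these sources. Each deposited region carries the authors' enrichment signal, of unstated scale, used only to rank regions within a list, and the deposited −log10 q-values were not used. Lists on ce11 (equal to WBcel235) were used. The ce10 lists were not, and no coordinates were converted. Coordinates are 1-based. Library depth was not used here, so no interval or floor is given.

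Gene starts came from Ensembl release 115 and symbols, product names and gene identity from RefSeq. Summits within 1000 bp of a start were assigned to every gene in reach. Unique words were 36-base words found once in the genome on either strand. The words, motif search and assignment were tested on simulated data. No statistical test was made, since there is 1 group and members share regions.

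Named genes were those with a thresholded peak, the 12 with the highest pooled signal, the 5 with the highest signal in each replicate, isolated genes with a region, and related genes with a thresholded peak. Others, such as *his-9*, *his-31*, *his-47*, *his-57*, *his-70*, *his-73*, *cpar-1*, *nap-1*, *spt-16* and *cdl-1*, were named after their values were seen. The members and lists were chosen with earlier results of these data known. The uniqueness classes, the background for divergent pairs, the replicate overlap, the GC content and the shares of all genes at other distances were added after seeing the data. Alternatives changed the distance, the assignment, the lists, the cluster distance, the motif window and the word length. The scripts ran under Python 3.11.15 (matplotlib 3.10.9, scipy 1.17.1, pandas 2.3.3, numpy 2.4.6).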

Additional observations from a re-analysis of the deposited data

How the results depend on the processing

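Of 54 alternative values, 35 stayed close to those reported and 19 moved. Closeness was judged by a fixed ratio to the reported value, without regard to other genes. A share of 52% in place of 76%, for example, counted as close. With summits within 500 bp, histone genes with a region were 7 in replicate 3 (9.72%, all genes 33.6%) and 5 in both replicates (6.94%, all genes 11.4%), and 12 clustered genes had a pooled region (all 72, 22.2%; all genes, 34.4%). Within 2000 bp the counts were 45 in the pooled list (62.5%, against 14798 of all 19985 genes; 41 clustered), 28 in replicate 2 (38.9%, all genes 59.3%), 42 in replicate 3 (58.3%, all genes 74.9%), 20 in both (27.8%, all genes 47.0%) and 2 (2.78%, all genes 3.3%) with the thresholded peak near *his-55*, which made the best pooled rank 91. Counting any overlap of a region with the 1000 bp window gave 1 gene with this peak, again of rank 91, and the same count over all genes was not made. With 1 replicate list in place of the pool, histone genes with a region were 15 in replicate 2 (20.8%, all genes 40.1%) and 20 in replicate 3 (27.8%, all genes 53.0%). Clustered ones ranged from 13 to 17, isolated ones from 2 to 3 and the best rank from 636 to 764. Among the highest 396 regions of either list were 0 histone genes, and the share of all genes there was not counted. Replacing the thresholded list by the highest 1000 or 2000 pooled regions gave 3 or 6 genes (4.17% or 8.33%, against 5.09% or 7.98% of all genes). Within 50 bp of a summit, 1 region had an E2F word (3.704%, against 5.695% of the pooled regions near any gene start). A CHR word was there in 8 (29.6%, against 32.04%). Within 250 bp the shares were 22.2% against 16.7% for E2F words and 70.4% against 83.9% for CHR words. The E2F share was thus above that of all such regions within 100 and 250 bp (4 and 6 of 27 regions), but below it within 50 bp (1 of 27). These counts are small, so no direction is read from them. Among histone genes with at least 75% unique words, an alternative chosen after seeing the data, the share with a pooled region was 32% (other genes 20.6%) within 250 bp, 60% (35.9%) within 500 bp and 56% (49.3%) for the nearest gene only. It was 52% (41.7%) with replicate 2 alone and 56% (55.1%) with replicate 3 alone. With 50-base words it was 76% of 25 genes (other genes 55.0%). With 24-base words the class held only 18 histone genes, and the share was 88.9% (other genes 55.8%). No paired analysis was possible because there is 1 group. With depth unknown, a missing region cannot be read as missing binding.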
